A study of Rattus norvegicus with 12 samples.

Results

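The matrix metalloproteinases (MMPs), the ADAMTS proteases with their ADAMTS-like relatives, and the tissue inhibitors of metalloproteinases (TIMPs) were examined in rat kidney after ischemia-reperfusion injury. The members were all rows of the expression table with exactly 1 gene symbol that began with Mmp and a digit, with Adamts, or with Timp and a digit. This gave 43 genes of the 18166 with 1 symbol and values on every array: 20 MMPs, 14 ADAMTS, 5 ADAMTS-like genes and 4 TIMPs, each with 1 row. Microarrays measured kidney RNA in 4 groups of 3 arrays: kidneys treated with anti-miR-182 or with placebo, each at day 2 and at day 7 after the injury, so the placebo kidneys carried the ischemic injury too. Anti-miR-182 is, by its name, an inhibitor of the microRNA miR-182. The sources used here do not state its dose and timing, or the strain, sex and age of the rats, and no uninjured kidney was analysed here. The groups follow the titles, which give day 2 or day 7, while a second label field speaks of a biopsy at zero hours. Every title carries its own code, read here as 1 rat each, which the labels do not spell out. The p-values therefore measure the spread between these 12 samples, which may be technical if a rat gave several.

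MMPs and ADAMTS are zinc proteases, secreted or held at the cell surface, that cut collagens, proteoglycans and other matrix proteins as well as signalling molecules. They are made as inactive precursors, and TIMPs bind their active sites. ADAMTS-like proteins share the binding domains of ADAMTS without a protease domain. In the kidney these genes are best known from inflammation, repair and fibrosis after injury.

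The table held log2 signals made with RMA, per the submitters' processing notes. Tubular genes were high, as the kidney label calls for: Umod, the uromodulin of the thick limb, lay at percentile 99.4 of all genes, and Lrp2 (megalin) and Slc34a1 (the proximal phosphate transporter) at 99.3 and 96.4. Median signals of the arrays were 5.98 to 6.11 at day 2 and 5.84 to 5.93 at day 7, and the median gene was lower at day 7 by a log2 difference of -0.18 in placebo and -0.21 under anti-miR-182. Day and any separate normalization of the 2 days cannot be told apart, and differences between days are read against those medians. A pair of arrays that stood apart from their groups was followed throughout. Placebo day 7 replicate 2 was high for macrophage and fibroblast markers, and anti-miR-182 day 2 replicate 3 was low for injured-tubule markers, with a mean of 7.45 over Havcr1, Lcn2, Krt20 and Vcam1 against 8.34 and 8.59 in its group. Where leaving out 1 of these arrays moved a printed value of a well-expressed member by over 1.5 times, turned a printed split of a list, or changed a call of such a member, the value without it is given too. Genes named within the lists were not refitted one by one in this way. Placebo day 7 replicate 1 was also low for injured-tubule markers, at 7.90 against 8.76 and 8.53. Values without it, or without an array not named here, are given for some members only. In whole tissue, fewer cells of a type and less RNA per cell cannot be told apart.

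The microRNA that the treatment names is shown first, since it defines the contrast. The mature sequence is from RefSeq (GRCr8), with the seed, bases 2 to 8, in capitals, from chr4:59752249-59752273 on the minus strand.
rno-miR-182: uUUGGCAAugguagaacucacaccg

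A run of neighbouring MMP genes on chromosome 8 holds 9 of the members, in the order Mmp13, Mmp12, Mmp3, Mmp1, Mmp10, Mmp8, Mmp27, Mmp20 and Mmp7. The promoters of 5 are printed because these genes changed between the days in at least 1 treatment, Mmp13 up and the others down. Each line gives 120 bases, from 110 before to 10 after the start in the RefSeq promoter table (GRCr8), with motifs in capitals. That start lies inside the annotated gene for Mmp8 and matches the annotated start for the others printed. The first motif is TGAGTCA, on either strand, the letters bound by the factor AP-1. The second is the TATA box, TATAAA.
Mmp13, chr8:12782719-12782838, plus strand: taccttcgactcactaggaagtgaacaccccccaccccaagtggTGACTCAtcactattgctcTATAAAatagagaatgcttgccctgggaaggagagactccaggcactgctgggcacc
Mmp12, chr8:12866542-12866661, plus strand: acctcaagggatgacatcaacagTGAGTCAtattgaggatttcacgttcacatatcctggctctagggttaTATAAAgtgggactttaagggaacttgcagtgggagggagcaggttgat
Mmp1, chr8:12943343-12943462, plus strand: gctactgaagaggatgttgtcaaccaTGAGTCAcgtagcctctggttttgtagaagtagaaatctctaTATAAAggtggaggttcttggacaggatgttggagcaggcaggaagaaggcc
Mmp10, chr8:12974597-12974716, plus strand: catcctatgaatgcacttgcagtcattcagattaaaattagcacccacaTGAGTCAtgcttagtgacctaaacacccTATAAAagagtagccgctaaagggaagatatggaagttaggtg
Mmp8, chr8:13008780-13008899, plus strand: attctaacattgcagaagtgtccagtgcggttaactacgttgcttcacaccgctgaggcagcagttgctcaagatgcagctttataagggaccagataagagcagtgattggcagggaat
In the 300 bases around each start, searched for TGAGTCA on both strands and TATAAA on the strand of the gene, 6 of the 9 neighbours held the AP-1 letters: Mmp13, Mmp12, Mmp3, Mmp1, Mmp10 and Mmp7. All 6 also held TATAAA, and Mmp20 held TATAAA alone. Of 25 other members with a promoter in the tables, 0 held the AP-1 letters and 3 held TATAAA. Over 33469 promoters of the same length the shares were 4.63% for AP-1, 8.8% for TATAAA and 0.514% for both, and 34 of the 43 members had a promoter to search. Counted by 1 promoter per gene, as the members were, the shares over 27457 genes were 4.53%, 9.08% and 0.528%. Mmp8 held neither of these exact strings, so the printed windows differ in them among genes that share a direction. Near matches, such as the tataag of the Mmp8 window, were not searched. A match describes letters only.

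A member was called well expressed where its mean over all arrays reached the median of all genes, 6.42 on the log2 scale, and 16 of 43 did. These were the 4 TIMPs, Mmp2, Mmp12, Mmp14, Mmp17 and Mmp20, Adamts1, Adamts5, Adamts9, Adamts10 and Adamts12, and Adamtsl1 and Adamtsl5. Mmp17 was the last inside at 6.49 and Mmp11 the first outside at 6.37. Signals of different genes come from different probes and are not compared. The other 27 were dim, among them the gelatinase Mmp9, the matrilysin Mmp7 and the collagenases Mmp1, Mmp8 and Mmp13.

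**Figure D1:**
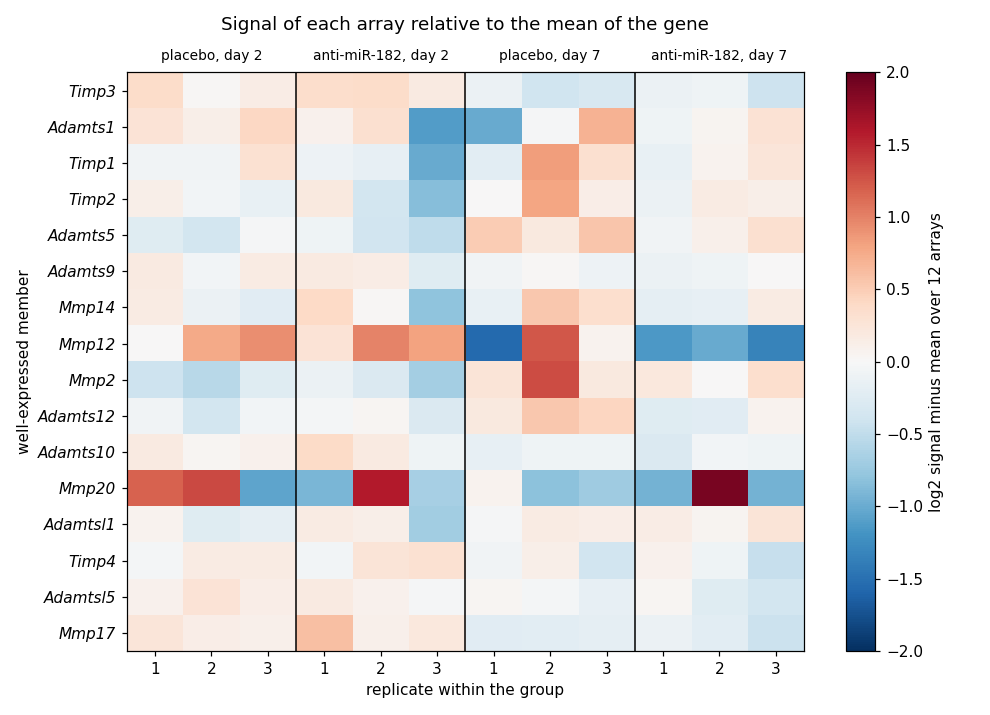
Each cell is the log2 signal of 1 array minus the mean of that gene over 12 arrays, for the 16 well-expressed members, with 3 replicates in each of 4 groups. Placebo day 7 replicate 2 is high for Mmp12, Mmp2, Timp1 and Timp2, anti-miR-182 day 2 replicate 3 is low for Adamts1, Timp1 and Timp2, and Mmp20 switches between high and low within groups.

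Anti-miR-182 and placebo kidneys differed in no member past the threshold, a Benjamini-Hochberg adjusted p under 0.05 over all genes in limma. The count was 0 of 43 at day 2, at day 7, over both days and for the difference between days. Over all genes 0% passed at either day and for the difference, and 0.0055% (1 gene, no member) over both days. At an unadjusted p under 0.05 there were 2 members at day 2 (Adamts17 and Adamts18, both higher and dim) against 6.61% of all genes, and 2 at day 7 (Adamts12 and Mmp12, both lower) against 3.26%. There was 1 for the mean of both days (Adamts12, lower) against 5.27%. Among the 16 well-expressed members, 7 were higher and 9 lower at day 2, with a median difference of -0.04 against 0.03 for all genes and -0.02 for all genes at or above the median level. Without anti-miR-182 day 2 replicate 3 the split was 9 higher and 7 lower, with a median of 0.07. At day 7, 4 were higher and 12 lower, with a median of -0.09 against -0.0008 for all genes. Without placebo day 7 replicate 2 the split was 6 and 10, with a median of -0.02.

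**Figure D2:**
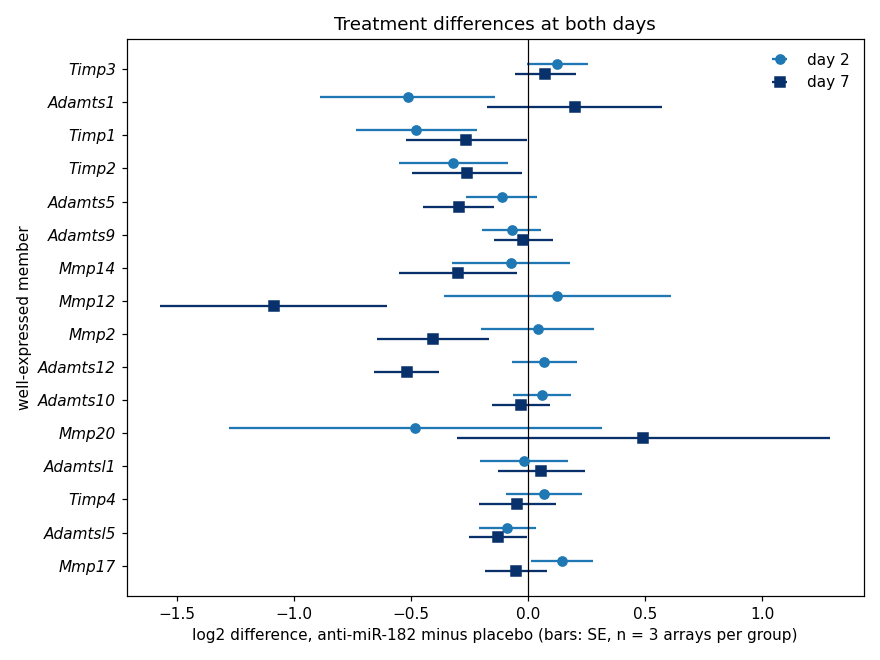
Log2 difference of anti-miR-182 minus placebo for the 16 well-expressed members at day 2 (circles) and day 7 (squares), with the SE from limma (3 arrays per group). At day 7, 12 of 16 lie below 0 and Mmp12 is lowest at -1.09, and no difference passed the threshold.

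Between day 2 and day 7, 12 of 43 members passed in placebo kidneys and 14 of 43 under anti-miR-182, against 28% and 27.5% of all genes. These shares are close to the background. At an unadjusted p under 0.05 the counts were 17 against 41.3% of all genes in placebo and 19 against 41.4% under anti-miR-182. Without overlap between days, 10 members were higher and 11 lower in placebo (8.38% and 40% of all genes), and 5 higher and 12 lower under anti-miR-182 (5.36% and 35%). The directions were 6 up and 6 down in placebo, where 4.22% of all genes rose and 23.7% fell, and 3 up and 11 down under anti-miR-182, where 2.68% rose and 24.9% fell. The members that passed under both treatments, in the same direction, were 9 of the 12 (75%) and 9 of the 14 (64.3%), where 3289 of all genes did so, 64.7% and 65.8% of the genes called in each. Adamts4, Adamts5 and Mmp13 rose in both, and Adamts15, Adamtsl3, Mmp1, Mmp10, Mmp8 and Timp3 fell in both. The 2 contrasts share no array, yet both span the same 2 days. Of the well-expressed members 4 of 16 passed in each, where 34.1% and 28.6% of all genes at or above the median level did. After quantile normalization, which gives every array the same distribution, 9 members rose and 4 fell in placebo (8.14% and 7.9% of all genes), and 6 rose and 6 fell under anti-miR-182 (7.22% and 7.62%).

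**Figure D3:**
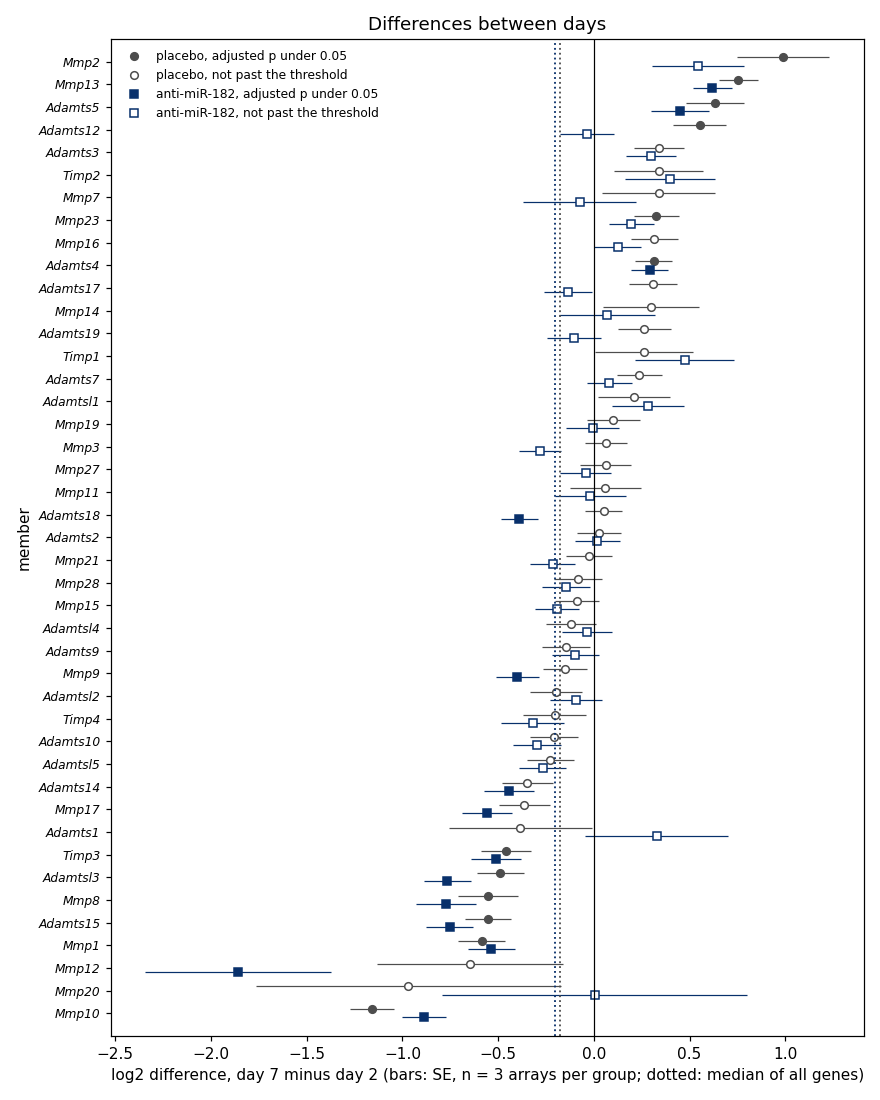
Log2 difference of day 7 minus day 2 for all 43 members in placebo (circles) and under anti-miR-182 (squares), with SE from limma (3 arrays per group). Filled marks passed an adjusted p under 0.05, and dotted lines mark the median of all genes, -0.18 and -0.21. Mmp2 and Mmp13 lead the rises in placebo, and Mmp10 and, under anti-miR-182, Mmp12 lead the falls.

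Among the inhibitors, Timp1, a secreted inhibitor that marks injured and fibrosing kidney, had log2 signals of 8.99, 8.92 and 8.09 under anti-miR-182 and 9.01, 9.02 and 9.40 in placebo at day 2. The groups did not overlap, although the lowest placebo array lay within 0.02 of the highest treated one. Timp1 was the single well-expressed member without overlap at that day, where 4.24% of all genes were lower without overlap and 8.06% higher. Its difference was -0.48 ± 0.26 (SE, n = 3 per group, limma adjusted p = 0.764) and shrank to -0.19 without anti-miR-182 day 2 replicate 3. Without replicate 1 of that group it was -0.64. At day 7 Timp1 read 8.93, 9.15 and 9.33 under anti-miR-182 and 8.88, 9.93 and 9.40 in placebo. The groups overlapped, with placebo replicate 2 high. The difference of -0.26 ± 0.26 (adjusted p = 0.999) came to -0.0018 without that array, and to -0.53 without placebo replicate 1.

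Timp2, which with Mmp14 takes part in activating the precursor of Mmp2, read 9.16, 8.60 and 8.12 under anti-miR-182 and 9.09, 8.92 and 8.83 in placebo at day 2. At day 7 Timp2 read 8.86, 9.13 and 9.08 against 8.99, 9.77 and 9.10. The same 2 arrays were the extremes as for Timp1, and the groups overlapped at both days. The differences were -0.32 ± 0.23 and -0.26 ± 0.23 (limma adjusted p = 0.836 and 0.999), and -0.07 and -0.02 without the extreme array of each day. The day 2 value was -0.59 without anti-miR-182 replicate 1, and the day 7 value was -0.41 without placebo replicate 1. Neither Timp1 nor Timp2 passed between the days. Their differences were 0.26 ± 0.26 and 0.34 ± 0.23 in placebo and 0.47 ± 0.26 and 0.40 ± 0.23 under anti-miR-182, and none of these values was steady. Without placebo day 7 replicate 2 the placebo values came to -0.0016 for Timp1 and 0.10 for Timp2. Without anti-miR-182 day 2 replicate 3 the values under treatment came to 0.18 and 0.15. Without anti-miR-182 day 2 replicate 1, Timp2 reached 0.66 under treatment and passed (limma adjusted p = 0.0354).

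Timp3, the inhibitor that binds to the matrix and also acts on ADAMTS proteases, was the one TIMP past the threshold. It read 10.85, 10.50 and 10.63 in placebo at day 2 and 10.36, 10.08 and 10.17 at day 7. Under anti-miR-182 it read 10.84, 10.86 and 10.67 at day 2 and 10.37, 10.40 and 10.06 at day 7. All day 7 arrays lay below all day 2 arrays. The differences were -0.46 ± 0.13 (limma adjusted p = 0.0201) in placebo and -0.51 ± 0.13 (adjusted p = 0.0126) under anti-miR-182. The call ended after quantile normalization, at -0.12 (adjusted p = 0.6) and -0.20 (adjusted p = 0.371), and after centring on the array median, at -0.31 (adjusted p = 0.0916) and -0.33 (adjusted p = 0.0908). In placebo it also ended without day 7 replicate 2 (-0.40, adjusted p = 0.0678), day 2 replicate 1 or day 7 replicate 3, and under anti-miR-182 without day 7 replicate 3. Between treatments Timp3 differed by 0.13 ± 0.13 at day 2 and 0.07 ± 0.13 at day 7 (adjusted p = 0.882 and 0.999). Timp4 differed by 0.07 ± 0.16 and -0.05 ± 0.16 between treatments and passed no comparison. The Timp4 values came to -0.0022 without anti-miR-182 day 2 replicate 3 and 0.07 without placebo day 7 replicate 2. Timp3 at day 7 came to 0.01 without the latter array.

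**Figure D4:**
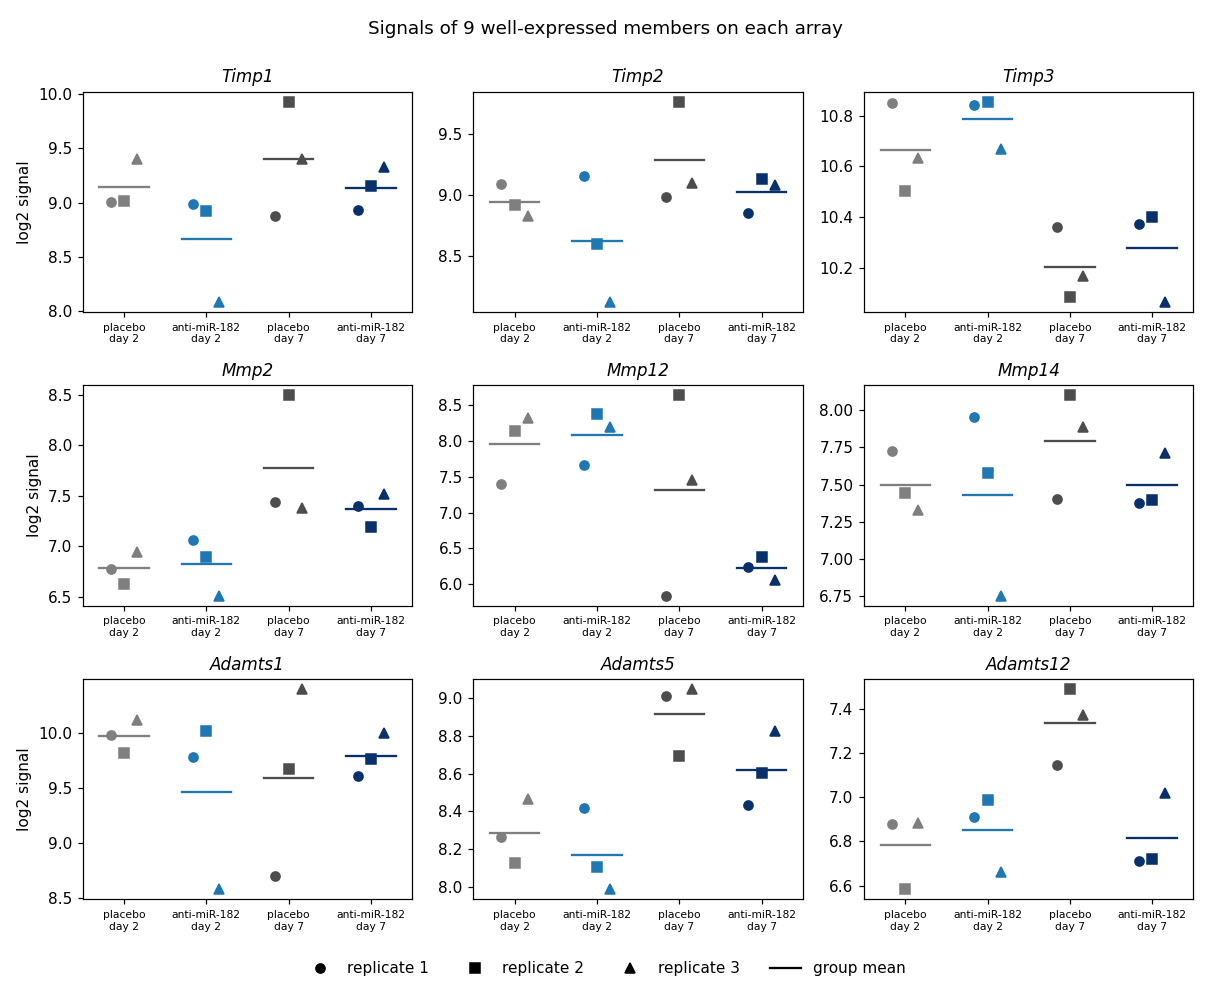
Log2 signals of 9 well-expressed members, 1 point per array, with replicate numbers as marker shapes and the group mean as a line; each panel has its own axis. Timp1, Timp2 and Mmp2 share placebo day 7 replicate 2 as their highest array, and Adamts12 separates placebo from anti-miR-182 at day 7.

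Of the metalloproteinases, Mmp2, a gelatinase made mainly by fibroblasts and other stromal cells, read 6.78, 6.63 and 6.94 in placebo at day 2 and 7.44, 8.49 and 7.38 at day 7. Every day 7 array lay above every day 2 array, replicate 2 by the most. Mmp2 rose by 0.99 ± 0.24 (limma adjusted p = 0.00939), a 1.98-fold change, and by 0.63 (adjusted p = 0.0193) without that replicate. Under anti-miR-182 it read 7.06, 6.90 and 6.51 at day 2 and 7.39, 7.19 and 7.51 at day 7, again without overlap. That difference of 0.54 ± 0.24 missed the threshold (adjusted p = 0.105), and after quantile normalization it was 0.74 (adjusted p = 0.0475). It was 0.39 (adjusted p = 0.284) without anti-miR-182 day 2 replicate 3, and it passed at the same size (adjusted p = 0.0187) without placebo day 7 replicate 2, an array that enters it only through the pooled spread. The change over time did not differ between treatments past the threshold (-0.45 ± 0.34, adjusted p = 0.999). That value was -0.09 without placebo day 7 replicate 2. At day 7 the treatment difference was -0.41 ± 0.24 (adjusted p = 0.999). It ran from -0.60 without placebo replicate 3 to -0.05 without placebo replicate 2. At day 2 it was 0.04 ± 0.24, and 0.20 without anti-miR-182 replicate 3.

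Mean signals of 7 fibroblast markers (Pdgfra, Pdgfrb, Col1a1, Col3a1, Dcn, Lum and Postn) moved with Mmp2. They were 7.42 to 7.64 in placebo at day 2 and 8.0, 8.85 and 8.03 in placebo at day 7. Under anti-miR-182 they were 7.30 to 7.67 at day 2 and 7.73 to 7.75 at day 7. All 7 were measured, and their part in the result was not tested.

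Mmp14, the membrane protease that activates the Mmp2 precursor, read 7.95, 7.58 and 6.75 under anti-miR-182 and 7.72, 7.45 and 7.33 in placebo at day 2. The values at day 7 were 7.38, 7.40 and 7.72 against 7.40, 8.10 and 7.89. The groups overlapped at both days. Its difference at day 2 changed sign from -0.07 ± 0.25 to 0.27 without anti-miR-182 replicate 3. At day 7 it was -0.30 ± 0.25, or -0.15 without placebo replicate 2 and -0.50 without placebo replicate 1. Between days Mmp14 differed by 0.30 ± 0.25 in placebo, or 0.15 without day 7 replicate 2. Under anti-miR-182 it differed by 0.07 ± 0.25, or -0.27 without day 2 replicate 3.

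Mmp12, the macrophage elastase, spread widely. In placebo it read 7.40, 8.15 and 8.33 at day 2 and 5.84, 8.64 and 7.46 at day 7. Under anti-miR-182 it read 7.67, 8.39 and 8.19 at day 2 and 6.24, 6.38 and 6.05 at day 7. The treated arrays at day 7 lay close together, and the placebo arrays fell on both sides of them. Under anti-miR-182 Mmp12 fell by 1.86 on the log2 scale (SE 0.48, limma adjusted p = 0.0135), 3.63-fold, with no overlap. Without day 2 replicate 2 the fall missed the threshold (adjusted p = 0.0543). In placebo the difference was -0.65 ± 0.48 (adjusted p = 0.33). It was -1.31 and passed without day 7 replicate 2 (adjusted p = 0.0276), and turned to 0.09 without day 7 replicate 1. The treatment difference at day 7 was -1.09 ± 0.48 (unadjusted p = 0.0416, adjusted p = 0.999), with a 95% interval of -2.13 to -0.05. It ran from -1.83 without placebo replicate 1 to -0.42 without placebo replicate 2. The pooled SD of Mmp12 within groups, 0.773, was the 26th widest of 18166 genes.

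The mean signals of 7 macrophage markers (Cd68, Cd163, Mrc1, C1qa, C1qb, Csf1r and Adgre1, all measured) were 6.95, 8.32 and 7.31 in the placebo arrays at day 7. They were 6.98 to 7.11 under anti-miR-182 at day 7 and 6.53 to 6.79 over both treatments at day 2. The order of the placebo arrays at day 7 was that of Mmp12, while at day 2 Mmp12 was high and the markers low. Their part in the result was not tested.

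Mmp17, a protease held at the membrane, read 7.09, 6.59 and 6.69 under anti-miR-182 and 6.73, 6.62 and 6.59 in placebo at day 2. The day 7 values were 6.36, 6.27 and 6.06 under anti-miR-182 and 6.27, 6.27 and 6.31 in placebo. Each day 7 array lay below each day 2 array. Mmp17 fell by 0.56 under anti-miR-182 (SE 0.13, limma adjusted p = 0.0083), a call that ended after quantile normalization (-0.39, adjusted p = 0.0597) and after centring (-0.37, adjusted p = 0.066). In placebo the difference of -0.36 ± 0.13 missed the threshold (adjusted p = 0.0536) and passed without anti-miR-182 day 2 replicate 3 (adjusted p = 0.0497). Between treatments it was 0.14 ± 0.13 at day 2 and -0.05 ± 0.13 at day 7.

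Mmp20, the enamel protease of developing teeth, had its row at 5.77, 8.27 and 6.02 under anti-miR-182 and 7.87, 8.0 and 5.64 in placebo at day 2. At day 7 it was at 5.74, 8.59 and 5.74 under anti-miR-182 and 6.76, 5.86 and 5.98 in placebo. Of the 12 arrays, 4 lay above 7, in 3 groups. Its pooled SD of 1.285 was the 3rd widest of 18166 genes, where the median gene had 0.171. No comparison of Mmp20 passed, and the treatment differences of -0.48 ± 0.80 and 0.49 ± 0.80 had intervals of -2.19 to 1.23 and -1.22 to 2.20. The first was -0.15 without anti-miR-182 day 2 replicate 3, and the second was 0.32 without placebo day 7 replicate 2. Leaving out 1 array at a time, the first ran from -1.27 to -0.02 and the second from -0.46 to 0.97.

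Some dim metalloproteinases also passed between days. Mmp13, a collagenase, was at 3.96, 3.85 and 3.89 in placebo at day 2 and 4.72, 4.62 and 4.62 at day 7. Under anti-miR-182 it was at 4.04, 4.06 and 3.97 and then at 4.53, 4.64 and 4.76. It rose by 0.75 ± 0.10 in placebo (limma adjusted p = 0.000326) and 0.62 ± 0.10 under anti-miR-182 (adjusted p = 0.0012). Mmp10, a stromelysin, was at 4.72, 4.66 and 4.68 in placebo at day 2 and 3.5, 3.48 and 3.60 at day 7. Under anti-miR-182 it was at 4.48, 4.67 and 4.40 and then at 3.62, 3.82 and 3.47. It fell by 1.16 (SE 0.12, adjusted p = 7.68e-05) and by 0.89 (SE 0.12, adjusted p = 0.000283). Neither gene overlapped between days, and both kept the call in all 20 settings in which they were tested with no minimum difference. Their levels were below the lower quartile of all genes, 5.47, where small steps are hard to tell from background.

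Mmp8, the neutrophil collagenase, fell by 0.55 in placebo and by 0.77 under anti-miR-182 (limma adjusted p = 0.0194 and 0.00381), from a mean level of 4.13. The placebo call ended after quantile normalization (-0.48, adjusted p = 0.0706), after centring (-0.40, adjusted p = 0.118) and without any of 4 placebo arrays, replicates 2 and 3 of day 2 and 1 and 3 of day 7. Mean signals of 6 neutrophil markers were 5.13 to 5.37 in placebo at day 2 and 5.09 to 5.32 at day 7. Under anti-miR-182 they were 5.16 to 5.29 and 5.07 to 5.26. These markers were dim, at percentiles 11.2 to 27.8 of all genes, so a steady mean says little. Their part was not tested. Mmp1, the interstitial collagenase, fell by 0.59 and by 0.54 (adjusted p = 0.00432 and 0.00692) from a mean level of 3.88, and after centring the second was -0.35 (adjusted p = 0.0605). Mmp23 rose by 0.33 in placebo (adjusted p = 0.0496), which 12 of its 21 settings did not keep, though both scalings did. Under anti-miR-182 its difference was 0.20 (adjusted p = 0.218). There it passed after quantile normalization (0.39, adjusted p = 0.0277) and after centring (0.38, adjusted p = 0.0385). Mmp9, the other gelatinase, fell by 0.40 under anti-miR-182 (adjusted p = 0.0202) and was at -0.15 in placebo, and the call ended after quantile normalization (-0.23, adjusted p = 0.222), after centring, and without anti-miR-182 day 2 replicate 2 or day 7 replicate 1 or 2. The remaining MMPs, Mmp3, Mmp7, Mmp11, Mmp15, Mmp16, Mmp19, Mmp21, Mmp27 and Mmp28, passed no comparison in the main fit of the deposited values. In placebo Mmp16 rose past the threshold after quantile normalization (0.38, limma adjusted p = 0.0367) and after centring (0.46, adjusted p = 0.019). Mmp7 was at 4.59, 6.28 and 4.98 in placebo at day 7 and between 4.80 and 5.12 in the other 3 groups, so placebo replicate 2 was high here too.

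**Figure D5:**
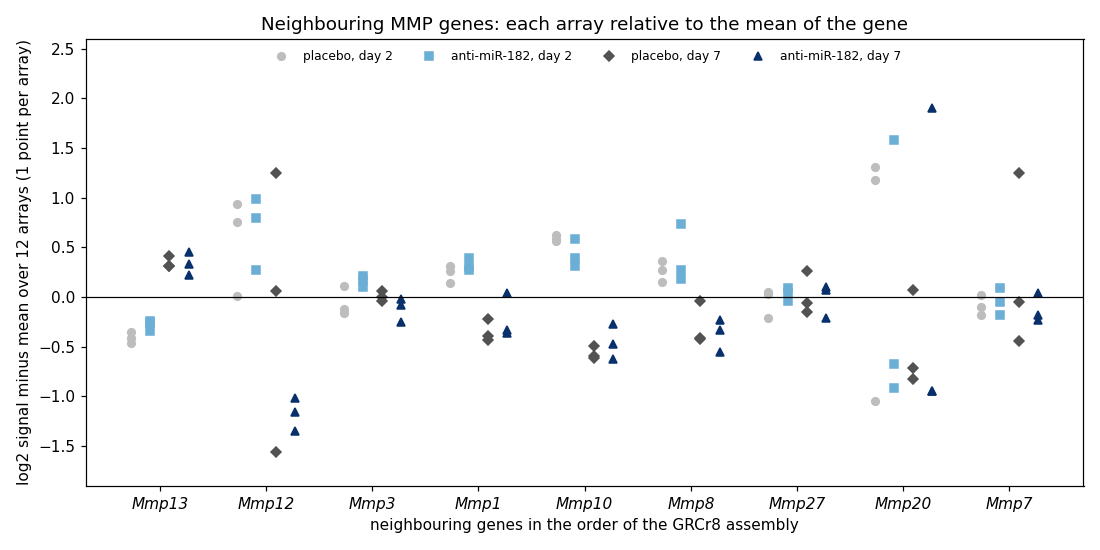
Log2 signal of each array minus the mean of the gene over 12 arrays, for the 9 neighbouring MMP genes of chromosome 8 in the order of the GRCr8 assembly, in 4 groups of 3 arrays. Mmp13 is higher at day 7 and Mmp1, Mmp10 and Mmp8 are lower at day 7 in both treatments, while Mmp27 shows no such shift.

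Along the chromosome 8 neighbours, the gene at one end rose and the others that passed fell. Mmp13 rose in both treatments, Mmp1, Mmp10 and Mmp8 fell in both, and Mmp12 fell under anti-miR-182. Mmp3, Mmp27, Mmp20 and Mmp7 passed in neither. Of the 6 genes with both motifs, 1 rose (Mmp13), 2 fell (Mmp1 and Mmp10) and 3 did not pass in placebo (Mmp12, Mmp3 and Mmp7).

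Of the ADAMTS proteases, Adamts12, which cuts cartilage oligomeric matrix protein, read 6.88, 6.58 and 6.88 in placebo at day 2 and 7.15, 7.49 and 7.37 at day 7. Under anti-miR-182 it read 6.91, 6.99 and 6.66 at day 2 and 6.71, 6.72 and 7.02 at day 7. At day 7 all placebo arrays lay above all treated arrays, where 3.75% of all genes were lower under treatment without overlap and 3.5% higher. The treatment difference at day 7 was -0.52 ± 0.14 (95% interval -0.82 to -0.22, unadjusted p = 0.00228, limma adjusted p = 0.999), a 1.43-fold difference that did not pass. Leaving out 1 array at a time it stayed between -0.62 and -0.44. At day 2 the difference was 0.07 ± 0.14, or 0.17 without anti-miR-182 replicate 3. The change of the treatment difference between days was -0.59 ± 0.20 (unadjusted p = 0.00986, adjusted p = 0.999).

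Adamts12 rose by 0.55 ± 0.14 between days in placebo (limma adjusted p = 0.0112), a comparison that shares the placebo arrays of day 7 with the treatment difference. The rise missed the threshold without placebo day 2 replicate 2 (0.45, adjusted p = 0.0557). Under anti-miR-182 it was -0.04 ± 0.14 (adjusted p = 0.87), 0.15 after quantile normalization, and -0.13 without day 2 replicate 3. The fibroblast markers given beside Mmp2 separated the groups at day 7 in the same way. Under anti-miR-182 these markers were also higher at day 7 than at day 2 without overlap, while Adamts12 was not. The part of the markers was not tested.

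Adamts5, a protease of aggrecan and versican, read 8.26, 8.12 and 8.47 in placebo at day 2 and 9.01, 8.69 and 9.05 at day 7. Under anti-miR-182 it read 8.42, 8.11 and 7.99 and then 8.43, 8.60 and 8.82. The days did not overlap in either treatment. Adamts5 rose by 0.63 ± 0.15 in placebo (limma adjusted p = 0.0087) and kept that call in all 22 settings without a minimum difference, between 0.55 and 0.94. Under anti-miR-182 it rose by 0.45 ± 0.15 (adjusted p = 0.0411), a call kept in 15 of 22 settings and lost, among others, without anti-miR-182 day 2 replicate 3 (0.36, adjusted p = 0.119). The treatment difference was -0.11 ± 0.15 at day 2 and -0.30 ± 0.15 at day 7 (adjusted p = 0.913 and 0.999). The day 2 value came to -0.02 without anti-miR-182 replicate 3.

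Adamts1, another protease of versican, read 9.78, 10.02 and 8.58 under anti-miR-182 and 9.98, 9.82 and 10.12 in placebo at day 2. Its day 7 signals were 9.61, 9.76 and 9.9965 under anti-miR-182 and 8.70, 9.67 and 10.40 in placebo. A single array in each of 2 groups was low, replicate 3 of the first and replicate 1 of the last. These arrays also had the lowest mean over the 4 injured-tubule markers, at 7.45 against 8.34 and 8.59, and at 7.90 against 8.76 and 8.53 in their groups, and the part of this in the result was not tested. The treatment difference at day 2, -0.51 ± 0.37 (limma adjusted p = 0.834), came to -0.07 without anti-miR-182 replicate 3. At day 7 it was 0.20 ± 0.37, and ran from -0.25 without placebo replicate 1 to 0.60 without placebo replicate 3. Between days it was -0.38 ± 0.37 in placebo and 0.33 ± 0.37 under anti-miR-182, the latter -0.11 without day 2 replicate 3. Its pooled SD within groups was 0.588.

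Adamts9 and Adamts10 each had a pooled SD within groups of 0.14, where the median gene had 0.171. Their treatment differences were -0.07 ± 0.12 and 0.06 ± 0.12 at day 2 and -0.02 ± 0.12 and -0.03 ± 0.12 at day 7, and neither passed between the days. The day 2 values came to 0.06 and 0.18 without anti-miR-182 replicate 3. Those of day 7 came to 0.02 and -0.02 without placebo replicate 2. Adamts10 differed by -0.30 ± 0.12 between days under anti-miR-182 and passed without day 2 replicate 3 (-0.42, limma adjusted p = 0.0216). The median gene differed by -0.21 there, and by -0.23 without that array. Adamts15, a dim protease of the aggrecan-cutting branch, was at 6.07, 5.86 and 6.14 in placebo at day 2 and 5.38, 5.46 and 5.56 at day 7. Under anti-miR-182 it was at 6.08, 6.28 and 6.10 and then at 5.21, 5.53 and 5.46. It fell without overlap by 0.55 and by 0.75 (limma adjusted p = 0.00554 and 0.00108), and all 21 settings without a minimum difference kept both calls. Adamts4, an aggrecanase with a mean level of 5.22, rose by 0.31 and 0.29 (adjusted p = 0.0271 and 0.0372), kept in 13 and 11 of 20 settings.

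Under anti-miR-182 Adamts14, which trims procollagen, fell by 0.44 and Adamts18 by 0.39 (limma adjusted p = 0.0242 and 0.0102). Both calls ended after quantile normalization, at -0.28 (adjusted p = 0.198) and -0.22 (adjusted p = 0.133), and after centring. That of Adamts14 also ended without anti-miR-182 day 2 replicate 1 or 2 or day 7 replicate 2 or 3. In placebo the differences were -0.35 ± 0.13 and 0.05 ± 0.10, which missed the threshold. Other dim ADAMTS genes gained calls. After quantile normalization Adamts3 and Adamts17 rose past it in placebo (0.41 and 0.40, limma adjusted p = 0.0476 and 0.0289). Both also passed there after centring, as did Adamts7 and Adamts19 (0.39 and 0.41, adjusted p = 0.0336 and 0.0374). Adamts3 passed in both scalings under anti-miR-182, at 0.45 and 0.48 (adjusted p = 0.0319 and 0.0303). At day 2 the dim members Adamts17, Adamts18, Mmp13, Mmp16 and Mmp21 were higher under anti-miR-182 without overlap. They were 18.5% of the 27 dim members, and 12% of all genes below the median level did the same. The 27 dim members had a median difference of 0.09 there, and all genes below the median level had 0.08. At day 7 Adamtsl2 was higher without overlap, and Adamts18 and Adamtsl3 were lower with Adamts12.

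Among the ADAMTS-like genes, Adamtsl3 fell by 0.49 in placebo and by 0.77 under anti-miR-182 (limma adjusted p = 0.011 and 0.00108). It was at 6.20, 5.69 and 5.98 in placebo at day 2 and 5.48, 5.44 and 5.49 at day 7. Under anti-miR-182 it was at 6.09, 6.14 and 6.24 and then at 5.41, 5.41 and 5.34, with no overlap in either. The placebo call ended after centring (-0.34, adjusted p = 0.071) and without placebo day 2 replicate 1. Adamtsl1 and Adamtsl5, both well expressed, passed nothing, with treatment differences of -0.02 ± 0.19 and -0.09 ± 0.12 at day 2 and 0.06 ± 0.19 and -0.13 ± 0.12 at day 7. The day 2 values came to 0.26 and -0.04 without anti-miR-182 replicate 3. Adamtsl1 at day 7 came to 0.10 without placebo replicate 2.

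For no member did the test of whether the change over time differed between treatments pass (limma adjusted p = 0.999 each), so the 8 members past the threshold in 1 treatment alone are not shown to differ between treatments. An unadjusted p under 0.05 was reached by 4 of 43, against 3.92% of all genes. These were Adamts18 (-0.44 ± 0.14), Adamts12, Adamts17 (-0.44 ± 0.18) and Mmp3 (-0.35 ± 0.16).

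Genes around the members were read from 5 lists. Of 28 matrix proteins that the proteases cut or bind, 22 were measured. At day 7, 20 of these were lower under anti-miR-182 and 2 higher, with a median of -0.20 against -0.0008 for all genes, and 0 passed. The smallest unadjusted p-values belonged to Col1a1 (-0.60 ± 0.18), Vcan (-0.53 ± 0.16), Postn (-1.63 ± 0.55) and Fbn1 (-0.55 ± 0.19), a collagen, versican, periostin and fibrillin. Without placebo day 7 replicate 2 the split was 17 lower and 5 higher with a median of -0.12, and after quantile normalization 18 and 4. This list also holds 5 of the 7 fibroblast markers. At day 2, 14 were lower and 8 higher, which turned to 7 and 15 without anti-miR-182 replicate 3.

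Between days 28% of all genes passed in placebo and 27.5% under anti-miR-182, and 31.8% and 18.2% of the measured matrix genes. After quantile normalization 8.14% of all genes rose and 7.9% fell in placebo, and 7.22% and 7.62% did under anti-miR-182. Between days in placebo, 6 matrix genes rose and 1 fell, and 12 rose and 0 fell after quantile normalization. Vcan rose by 1.05 ± 0.16, Postn by 2.98 ± 0.55, Fbn1 by 1.01 ± 0.19 and Fn1, fibronectin, by 0.94 ± 0.28 (limma adjusted p = 0.000784, 0.00215, 0.00229 and 0.0218). Without placebo day 7 replicate 2, 3 matrix genes passed in all. Under anti-miR-182, 2 rose (Vcan and Postn) and 2 fell (Col18a1 and Bcan), and 7 rose and 0 fell after quantile normalization.

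Of 24 activators, inhibitors and surface partners, 20 were measured and 0 passed between treatments, with 14 lower at day 2 and 16 lower at day 7. Without anti-miR-182 day 2 replicate 3 the split at day 2 turned to 7 lower and 13 higher, and without placebo day 7 replicate 2 that at day 7 was 14 and 6. A2m, the protease trap alpha-2-macroglobulin, rose by 2.91 ± 0.26 in placebo and 2.19 ± 0.26 under anti-miR-182 (limma adjusted p = 5.25e-05 and 0.000206), and its treatment difference at day 7 was -0.91 ± 0.26 (unadjusted p = 0.00401, adjusted p = 0.999). Tfpi2, an inhibitor of plasmin, also rose in both, by 0.66 and 0.62, and Plaur, the urokinase receptor, fell by 0.34 and by 0.55. In all, 2 rose and 2 fell in placebo, and 5 rose and 1 fell under anti-miR-182. These were 20% and 30% of the measured genes, against 28% and 27.5% of all genes. After quantile normalization 4 rose and 0 fell in placebo, and 6 rose and 1 fell under anti-miR-182.

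Of 20 related metalloproteinases 17 were measured. In placebo 2 rose, Adam12 (0.64 ± 0.14) and Mme, neprilysin (0.54 ± 0.18), and 3 fell, among them Pappa2 (-0.80 ± 0.13) and Tll1 (-0.49 ± 0.14). Under anti-miR-182, 1 rose and 4 fell. The share that passed was 29.4% in each treatment, against 28% and 27.5% of all genes. After quantile normalization 4 rose and 1 fell in placebo, and 6 rose and 3 fell under anti-miR-182. Of 15 lysosomal and heparan-degrading enzymes 14 were measured: 2 rose and 6 fell in placebo, and 1 rose and 6 fell under anti-miR-182. These were 57.1% and 50% of those measured, against 28% and 27.5% of all genes. The falls included Ctsl (-0.59 ± 0.10), Hyal1 (-0.78 ± 0.14), Hyal2 (-0.48 ± 0.12) and Ctsb (-0.79 ± 0.20) in placebo. After quantile normalization 3 rose and 2 fell in placebo, and 3 rose and 1 fell under anti-miR-182. Without placebo day 7 replicate 2, 0 rose and 6 fell in placebo. Of 22 inducers and AP-1 factors 21 were measured. In placebo Il6 rose by 0.96 ± 0.13 from a dim level, and Fosl1 (-0.74 ± 0.14), Jund (-0.44 ± 0.10) and Ets2 (-0.48 ± 0.12) were among the 4 that fell. Under anti-miR-182, 1 rose and 3 fell. The share that passed was 23.8% in placebo and 19% under anti-miR-182, against 28% and 27.5% of all genes. With quantile normalization 4 rose and 2 fell in placebo, and 4 rose and 0 fell under anti-miR-182. None of these lists held a gene past the threshold between treatments at either day.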

How the data were processed

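Kidney RNA was measured on 12 arrays in 4 groups of 3. The deposited table holds log2 signals, which the authors made with RMA, per the submitters' processing notes; its version is not given in the sources used here. Of 36685 rows, 190 had no values on day 2 arrays. The platform annotation named 19086 rows, 18511 with 1 symbol and 575 with several, and 18166 genes with values on every array were tested, each by its row with the highest mean. Values were used as deposited. No 2 arrays shared more than 18 identical values, and the highest correlation was 0.9939.

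Group means were fitted for every gene with limma 3.58.1 (R 4.3.3). From this fit 6 comparisons were drawn with eBayes, with Benjamini-Hochberg adjustment over all genes at 0.05, after tests on simulated data. A value with ± is the log2 difference with its SE. The number of arrays limits the precision. Array values are given for Timp1, Mmp2 and Adamts12, for well-expressed members past the threshold, and, for each treatment comparison and direction, for the 2 well-expressed members whose unadjusted p was lowest. Timp2, Mmp14 and the dim members shown by array were added after their values were seen. Of each list up to 4 genes with the smallest unadjusted p are named per comparison. The members and lists were chosen with earlier results of these data known. Each result was recomputed with the days fitted apart, with the trend or robust option of eBayes, and with weights per array. It was also recomputed after quantile normalization or centring of arrays on their medians, without the 25% or 50% of genes with the lowest signal, and with rows of 1 gene averaged or all kept. Further settings required a difference of at least 1, allowed an adjusted p up to 0.1, or omitted 1 array at a time. Leaving out both arrays that stood apart was chosen after seeing the data. Promoters and miR-182 are from RefSeq (GRCr8).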

Additional observations from a re-analysis of the deposited data

Results flagged for a closer look

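Adamts18, a dim member, moved in opposite directions on every array of the treated groups at the 2 days. At day 2 it read 6.02, 6.05 and 6.02 under anti-miR-182, all above the placebo values of 5.71, 5.80 and 5.77. At day 7 it read 5.66, 5.71 and 5.54 under anti-miR-182, all below 5.81, 5.86 and 5.76 in placebo. The treatment difference at day 7 minus that at day 2 was -0.4392 (SE 0.14, unadjusted p = 0.00592, limma adjusted p = 0.999), so it did not pass over all genes. Adamts18 was picked for this lack of overlap, so its p-value adds no separate support. How many of all genes do the same at both days was not counted. Of 9083 genes below the median level, 1087 were higher without overlap at day 2 and 379 lower at day 7. Their median change of the treatment difference was -0.08. The pooled SD of Adamts18 was 0.054, and 99.7% of genes had a wider one. No test for arrays far from their group was run on the members, since groups of 3 are too small for one.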

How the results depend on the processing

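No member passed between treatments, at either day, over both days or for the difference between days, under any alternative. No call reversed its direction. Between days in placebo, 12 members passed, and the count was 5 when the dimmest 50% of genes were left out and 1 at a minimum log2 difference of 1, where fewer members can pass. Over all genes kept, 37% and 2.12% passed in these 2 settings. With the dimmest 50% left out only the 16 well-expressed members remain. Leaving out 1 array at a time gave 8 to 14, where 17.6% to 31.8% of all genes passed. Under anti-miR-182, 14 passed, and the count was 8 and 4 when the dimmest 25% and 50% were left out and 1 at a minimum difference of 1. Over all genes kept, 28.1%, 29.2% and 1.7% passed there. Leaving out 1 array gave 9 to 15, lowest without anti-miR-182 day 2 replicate 2. The share of all genes then ran from 16.9% to 27.9%, lowest without the same array. Scaling moved the balance of directions. Over all genes 766 rose and 4314 fell in placebo as deposited, 1478 and 1436 after quantile normalization, and 1480 and 1748 after centring. Under anti-miR-182 the numbers were 487 and 4515, 1311 and 1384, and 1131 and 1351. Members went from 6 up and 6 down to 9 and 4 and to 11 and 3 in placebo, and from 3 and 11 to 6 and 6 and to 5 and 5 under anti-miR-182. Of the values of called members under the alternatives, 34 of 251 lost the call in placebo and 36 of 292 under anti-miR-182. Of those of uncalled members, 24 of 657 and 10 of 616 gained one. Of 670 counts over the gene lists 36 moved by over 1.5 times, 0 of them between treatments. The cause of these moves was not tested. No paired analysis was possible because the replicate numbers only follow the order of deposition and no code is shared between groups. The 3 arrays per group and signals near background limit what dim members can show.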
